A study of Rattus norvegicus with 12 samples.

Results

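The circadian clock genes of the rat striatum were examined as a set of 10 members. These were Bmal1 (also called Arntl), Npas2, Cry1, Per1, Per2, Nr1d1, Nfil3, Dbp, Usp2 and Wee1, found by their symbol in the probe annotation. Each of the 10 had 1 named probe among the 13375 probes of the array, where 9218 genes are named. Total striatal RNA was hybridised to 12 one-colour Illumina arrays, 1 per sample. The 6 LID samples came from parkinsonian rats that had been dosed chronically with levodopa, given as its methyl ester (25 mg/kg) along with benserazide (6.25 mg/kg), a blocker of decarboxylation outside the brain, and were dyskinetic. The 6 PD control samples came from parkinsonian rats with no levodopa, so both groups share the parkinsonian state. Striata were collected on day 8 after chronic treatment. The sources used here do not give the agent that made the rats parkinsonian, their strain, age and sex, the time of day of sampling, the lighting schedule or the interval since the last dose. No group received levodopa or benserazide without becoming dyskinetic, so effects of the drugs and of the movements cannot be told apart. The labels do not say that each sample is a separate animal, and p-values here reflect only sample-to-sample spread, which may be technical.

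In mammals the clock runs in most cells, the striatum included. CLOCK or its relative NPAS2 pairs with BMAL1 and switches on genes through E-boxes, among them the Per and Cry genes, whose proteins return to the nucleus and block that pair. A second loop is formed by Nr1d1, which encodes the repressor REV-ERB alpha acting on ROR elements, and by Dbp and Nfil3, whose proteins respectively activate and repress genes through D-boxes. In rodent tissues the transcripts repressed through ROR elements (Bmal1, Npas2, Nfil3 and Cry1) peak at times of day roughly opposite to Nr1d1, Dbp and Per1.

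Of the 10 members, 3 were higher in LID (Cry1, Nfil3 and Wee1), 4 were lower (Nr1d1, Per1, Usp2 and Dbp) and 3 did not pass the test (Bmal1, Npas2 and Per2). The test was limma's moderated linear model on all probes, two-sided, with a Benjamini-Hochberg adjusted p under 0.05, which calls 12.0% of all probes, 6.47% as higher and 5.54% as lower. Values are log2 intensities after background correction and quantile normalization, and each difference is LID minus PD control on that scale. The arrays of the 2 groups did not overlap for 6 members, every called one except Usp2, against 6.12% of all probes. The median absolute difference of the 10 members was 0.26 log2 units, and that of all probes was 0.075. The members were chosen with earlier results of these data known, so these shares and medians are a description only.

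**Figure D1:**
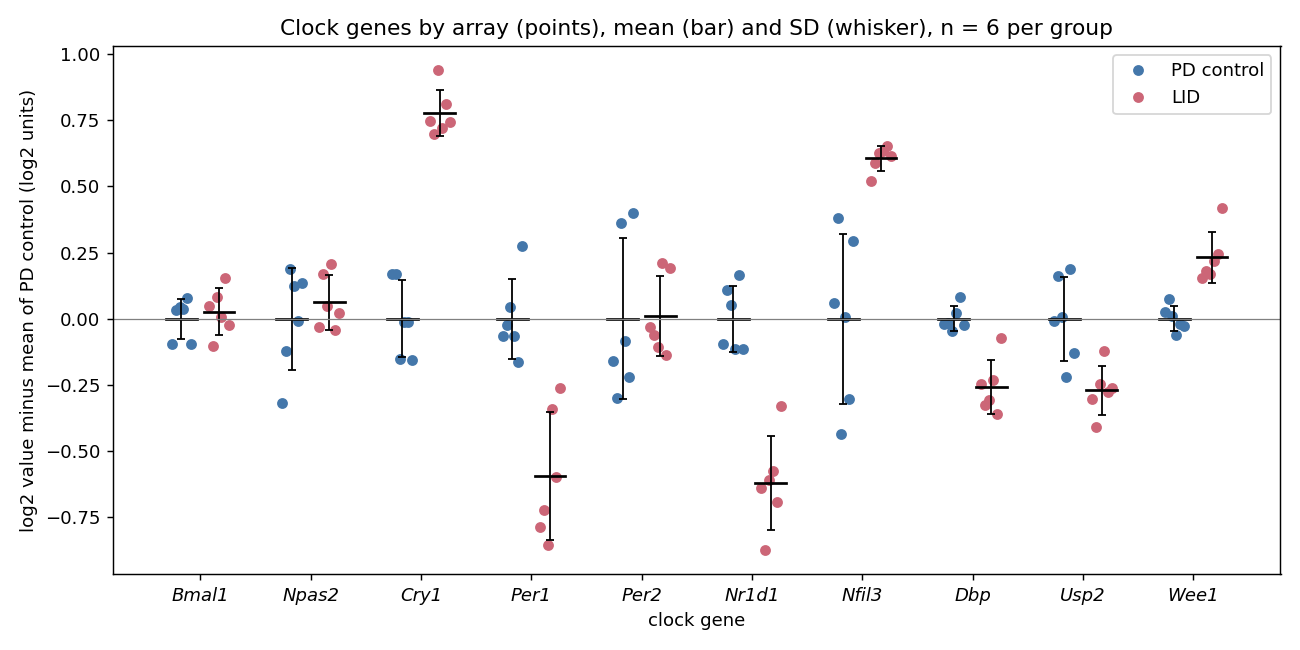
Each point is 1 array, plotted for each clock gene as its log2 value minus the PD control mean (log2 units); bars are group means and whiskers SDs, n = 6 per group. Cry1, Nfil3 and Wee1 lie wholly above PD control in LID, Per1, Nr1d1 and Dbp wholly below it, and Usp2 overlaps at 1 LID array.

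The 6 promoter windows of 5 members are shown because their differences, or the lack of a called one, can be set beside the clock motifs they carry. RefSeq windows on assembly GRCr8, from 250 bases before to 50 after a gene's start, matched 8 of the 10 members by gene ID, in 9 windows because Nr1d1 has 2; Cry1 and Wee1 had no entry in the table. Both strands were searched for CACGTG (E-box), CACGTT (a variant E-box), TTANGTAA (D-box), AGGTCA (the core of a ROR element), TGACG (the core of a cAMP response element) and TGACGTCA (the whole cAMP response element, which contains TGACG). Capitals mark every match.
Nr1d1 first window, chr10:84231763-84232062, minus strand: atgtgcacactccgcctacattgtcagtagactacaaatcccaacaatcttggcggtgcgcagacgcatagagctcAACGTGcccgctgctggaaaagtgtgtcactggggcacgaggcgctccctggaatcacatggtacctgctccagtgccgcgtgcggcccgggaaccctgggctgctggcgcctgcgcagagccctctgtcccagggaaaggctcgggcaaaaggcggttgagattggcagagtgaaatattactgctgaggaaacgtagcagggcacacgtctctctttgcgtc
Nr1d1 second window, chr10:84229405-84229704, minus strand: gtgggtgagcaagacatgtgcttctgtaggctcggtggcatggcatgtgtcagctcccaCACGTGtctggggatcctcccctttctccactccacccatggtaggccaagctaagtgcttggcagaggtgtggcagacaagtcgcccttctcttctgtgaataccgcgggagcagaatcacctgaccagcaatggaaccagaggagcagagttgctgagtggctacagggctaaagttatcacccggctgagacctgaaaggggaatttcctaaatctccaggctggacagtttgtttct
Nfil3, chr17:12432126-12432425, plus strand: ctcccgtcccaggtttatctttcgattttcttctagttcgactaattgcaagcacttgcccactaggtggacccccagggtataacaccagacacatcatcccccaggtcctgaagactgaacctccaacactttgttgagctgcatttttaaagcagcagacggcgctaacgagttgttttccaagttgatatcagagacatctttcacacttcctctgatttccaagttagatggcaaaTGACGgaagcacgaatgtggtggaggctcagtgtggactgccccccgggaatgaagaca
Usp2, chr8:53310620-53310919, plus strand: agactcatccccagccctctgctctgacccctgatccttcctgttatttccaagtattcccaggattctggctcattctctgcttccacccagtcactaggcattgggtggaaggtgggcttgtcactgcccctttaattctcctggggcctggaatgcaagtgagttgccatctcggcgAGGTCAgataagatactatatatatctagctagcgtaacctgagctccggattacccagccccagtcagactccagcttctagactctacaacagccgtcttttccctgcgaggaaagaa
Bmal1, chr1:176766078-176766377, plus strand: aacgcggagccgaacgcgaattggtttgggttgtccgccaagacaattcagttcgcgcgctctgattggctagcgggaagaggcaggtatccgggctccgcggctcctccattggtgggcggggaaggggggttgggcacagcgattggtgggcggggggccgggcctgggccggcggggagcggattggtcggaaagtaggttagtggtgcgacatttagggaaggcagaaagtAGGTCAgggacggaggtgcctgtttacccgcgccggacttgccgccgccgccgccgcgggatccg
Per2, chr9:99496944-99497243, minus strand: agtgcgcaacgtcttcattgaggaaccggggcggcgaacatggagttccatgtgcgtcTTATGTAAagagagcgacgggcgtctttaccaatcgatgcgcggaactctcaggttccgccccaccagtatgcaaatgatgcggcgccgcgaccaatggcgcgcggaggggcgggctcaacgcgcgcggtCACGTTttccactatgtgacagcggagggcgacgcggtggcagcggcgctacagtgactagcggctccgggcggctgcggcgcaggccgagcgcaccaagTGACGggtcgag

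Nr1d1 carried a variant E-box 174 bases upstream of the start in its first window and an E-box 191 bases upstream in its second. Usp2 and Bmal1 each held a ROR core, 70 and 15 bases upstream. Per2 held the D-box letters, a variant E-box and, downstream of the start, the core of a cAMP response element, and Nfil3 held such a core 9 bases upstream. The windows of Per1, Dbp and Npas2 held none of these letters. Of all 33469 windows in the table, 6.42% held the E-box, 4.83% the variant E-box, 2.24% the D-box, 16.2% the ROR core, 21.2% the TGACG core and 1.83% the whole cAMP response element, which no member window held. A match is a run of letters in this window and says nothing of a factor's binding.

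Among the repressors of the first loop, the 3 members went different ways. Cry1, which encodes the cryptochrome that blocks the CLOCK and BMAL1 pair, ran from 8.61 to 8.94 in PD control (median 8.76) and from 9.47 to 9.71 in LID (median 9.52). Every LID array stood above every PD control array, and the lowest LID array exceeded the highest control by more than the whole range of the controls. Cry1 was 1.71-fold higher in LID (difference 0.78 ± 0.067 SE on the log2 scale with 6 arrays in each group, limma adjusted p = 3.2e-05), the 9th smallest p of all 13375 probes. In the deposited intensities the medians were 427 in PD control and 727 in LID.

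Per1, a period gene induced by light, glucocorticoids and cAMP signalling, ran from 9.13 to 9.56 in PD control (median 9.25) and from 8.44 to 9.03 in LID (median 8.63). All 6 LID arrays were below all controls, and LID replicates 4 and 6, at 8.95 and 9.03, came nearest to them. Per1 was 1.51-fold higher in PD control (log2 difference -0.59 ± 0.11 SE, limma adjusted p = 0.0032). Whether fewer cells or less RNA per cell held a transcript cannot be told apart in whole tissue, for this gene or any other here.

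Per2, its paralogue in the same repressor complex, ran from 8.97 to 9.67 in PD control (median 9.15) and from 9.13 to 9.48 in LID (median 9.22). The groups overlapped throughout, with PD control replicates 3 and 6 highest at 9.63 and 9.67 and the next control at 9.18. The difference was 0.01 ± 0.12 SE (95% interval -0.26 to 0.28, limma adjusted p = 0.97), so a change of either sign within that interval remains possible. Without PD control replicates 1, 3 and 6 it was 0.21 (adjusted p = 0.18).

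Per1 and Per2 were also compared with each other, a pair picked after their values were seen. The log2 value of Per1 minus that of Per2 fell from between -0.30 and 0.30 in PD control to between -0.73 and -0.43 in LID, a shift of -0.60 ± 0.099 SE (two-sided exact permutation p = 0.00216, which is the lowest value possible with 6 arrays in each group, and the same after adjustment over 2 such tests). Without PD control replicates 1, 3 and 6 the shift was -0.72 (exact permutation p = 0.0119, the lowest value possible with 3 against 6 arrays). Replicates 3 and 6 were the controls highest in both genes. Cry1 minus Cry2, the other test, shifted by 0.75 ± 0.084 (exact permutation p = 0.00216), but the Cry2 probe was dim, with group means of 6.39 and 6.42, and could show little change. Both tests were chosen after the values were seen, so neither their p-values nor the adjustment over 2 tests allows for that choice.

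**Figure D2:**
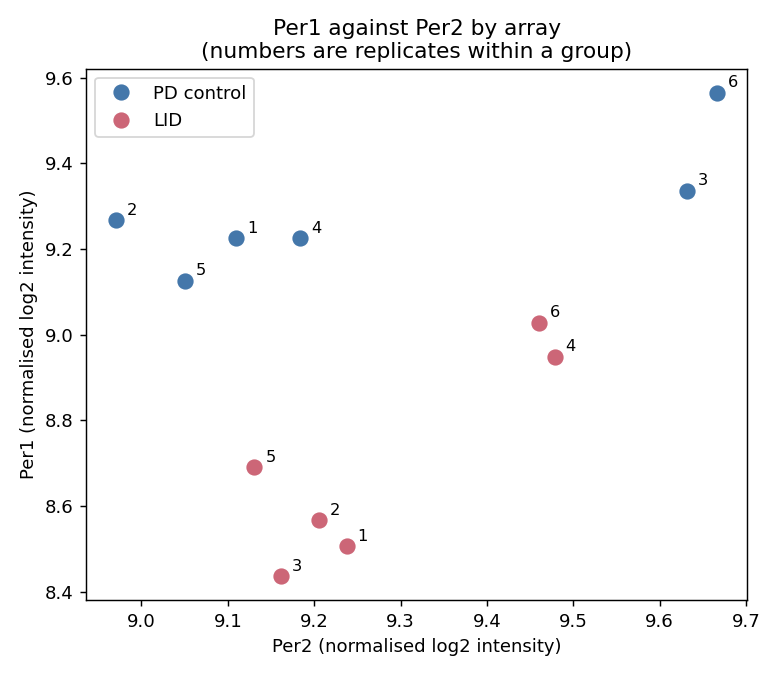
Normalised log2 intensity of Per1 (vertical) against Per2 (horizontal) on each of the 12 arrays, coloured by group and numbered by replicate. At similar Per2 values the LID arrays lie lower in Per1 than the PD control arrays, and in each group the 2 arrays highest in Per2 (PD control 3 and 6, LID 4 and 6) are also the 2 highest in Per1.

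Per1 and Per2 were positively correlated within each group, but no correlation passed after adjustment. Over the 6 PD control arrays Pearson's r was 0.81 (exact permutation p = 0.0292, adjusted 0.52) and Spearman's rho 0.66 (exact permutation p = 0.175, adjusted 0.71), and r was 0.77 without the 2 arrays farthest from the median of Per1. Over the 6 LID arrays r was 0.86 (exact permutation p = 0.0528, adjusted 0.61) and rho 0.54 (exact permutation p = 0.297, adjusted 0.71), but r was -0.46 without the 2 farthest arrays, so it rests on them. In all, 90 relations were computed, 45 pairs of members in each group. An unadjusted exact p of r under 0.05 was reached by 6 of them and an adjusted one by none (smallest adjusted p 0.38). The smallest p was that of Nr1d1 with Usp2 in PD control (r = 0.91, exact permutation p = 0.0056; rho = 0.94, exact permutation p = 0.0167, adjusted 0.43; r = 0.67 without the 2 farthest arrays), whose adjusted p of r was also 0.38.

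The 3 members of the second loop all passed the test, in opposite directions. Nr1d1, the gene of REV-ERB alpha whose windows with E-box letters are shown above, ran from 8.08 to 8.36 in PD control (median 8.17) and from 7.32 to 7.86 in LID (median 7.57). No array overlapped, and LID replicate 6, which also had the highest Per1 of LID, was the nearest to the controls. Nr1d1 was 1.54-fold higher in PD control (log2 difference -0.62 ± 0.082 SE, limma adjusted p = 0.00052), with deposited medians of 283 in PD control and 184 in LID.

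Nfil3, which encodes the D-box repressor also known as E4BP4, ran from 7.19 to 8.00 in PD control (median 7.65) and from 8.14 to 8.27 in LID (median 8.24). The 6 LID arrays lay close together above all controls, with an SD of 0.048 against 0.32 in PD control, where replicates 3 and 5 were lowest at 7.19 and 7.32. The difference in spread was not tested. Nfil3 was higher in LID by 0.61 ± 0.12 SE on the log2 scale (1.52-fold, limma adjusted p = 0.0054).

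Dbp, the D-box activator that Nfil3 protein competes with, ran from 6.73 to 6.86 in PD control (median 6.77) and from 6.42 to 6.71 in LID (median 6.51). The groups did not overlap, although LID replicate 6 at 6.71 lay just under the lowest control, as this array was also nearest to the controls in Per1 and Nr1d1. Dbp differed by -0.26 ± 0.049 SE (limma adjusted p = 0.0049). Its probe was dim, with deposited intensities of 80.2 to 111 in a table whose lowest value is 36.5, and the size of its change depended on the offset added before the logarithm: -0.51 with an offset of 1 in place of 50.

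Both activators of the first loop stayed within the spread of the arrays. Bmal1 ran from 6.90 to 7.07 in PD control (median 7.03) and from 6.89 to 7.15 in LID (median 7.02). Its groups overlapped almost completely, and the difference was 0.03 ± 0.050 SE (95% interval -0.081 to 0.14, limma adjusted p = 0.80). Npas2, the partner of BMAL1 that is enriched in the forebrain, ran from 6.96 to 7.47 in PD control (median 7.34) and from 7.24 to 7.48 in LID (median 7.31), a difference of 0.06 ± 0.082 SE (95% interval -0.12 to 0.24, limma adjusted p = 0.70). PD control replicate 1 was the lowest of the 12 for Npas2. For both genes the intervals leave out differences of the size seen in Cry1 or Nfil3, within the compressed scale of dim probes.

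The 2 output members moved in opposite directions by small amounts. Wee1, a kinase that holds CDK1 inactive before mitosis and a clock output in mouse liver, ran from 8.90 to 9.04 in PD control (median 8.96) and from 9.12 to 9.38 in LID (median 9.16). All LID arrays were higher, replicate 6 most of all, and the difference was 0.23 ± 0.048 SE (1.17-fold, limma adjusted p = 0.0075). Usp2, a deubiquitinase gene whose transcript cycles in many rodent tissues, ran from 10.36 to 10.77 in PD control (median 10.58) and from 10.18 to 10.46 in LID (median 10.32). Here 5 of the 6 LID arrays lay below every control and LID replicate 4 lay inside their range. Usp2 was 1.21-fold higher in PD control (log2 difference -0.27 ± 0.071 SE, limma adjusted p = 0.026), a call that was lost without PD control replicate 2 (-0.24, adjusted p = 0.055) and without LID replicate 1, 2 or 5 (-0.27 to -0.24, adjusted p 0.0501 to 0.0532). With the replicate number as a block, its adjusted p was 0.080.

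Grouped by the element that textbook knowledge gives as their main control in rodents, a grouping made after the values were seen, the 4 genes repressed through ROR elements (Bmal1, Npas2, Nfil3 and Cry1) had 2 higher, 0 lower and 2 not passing. Their differences ran from 0.03 to 0.78. The 6 genes driven through E-boxes and D-boxes (Per1, Per2, Nr1d1, Dbp, Usp2 and Wee1) had 1 higher, 4 lower and 1 not passing, with differences from -0.62 to 0.23. Cry1 is also switched on through E-boxes, as stated above, and the Usp2 window held a ROR core. The counts depend on where such genes are placed and are given as a description, beside 6.47% of all probes higher and 5.54% lower. Nr1d1 and its known targets Cry1 and Nfil3 differed in opposite directions, while Bmal1 and Npas2, targets of the same repressor, had differences within the spread of the arrays.

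**Figure D3:**
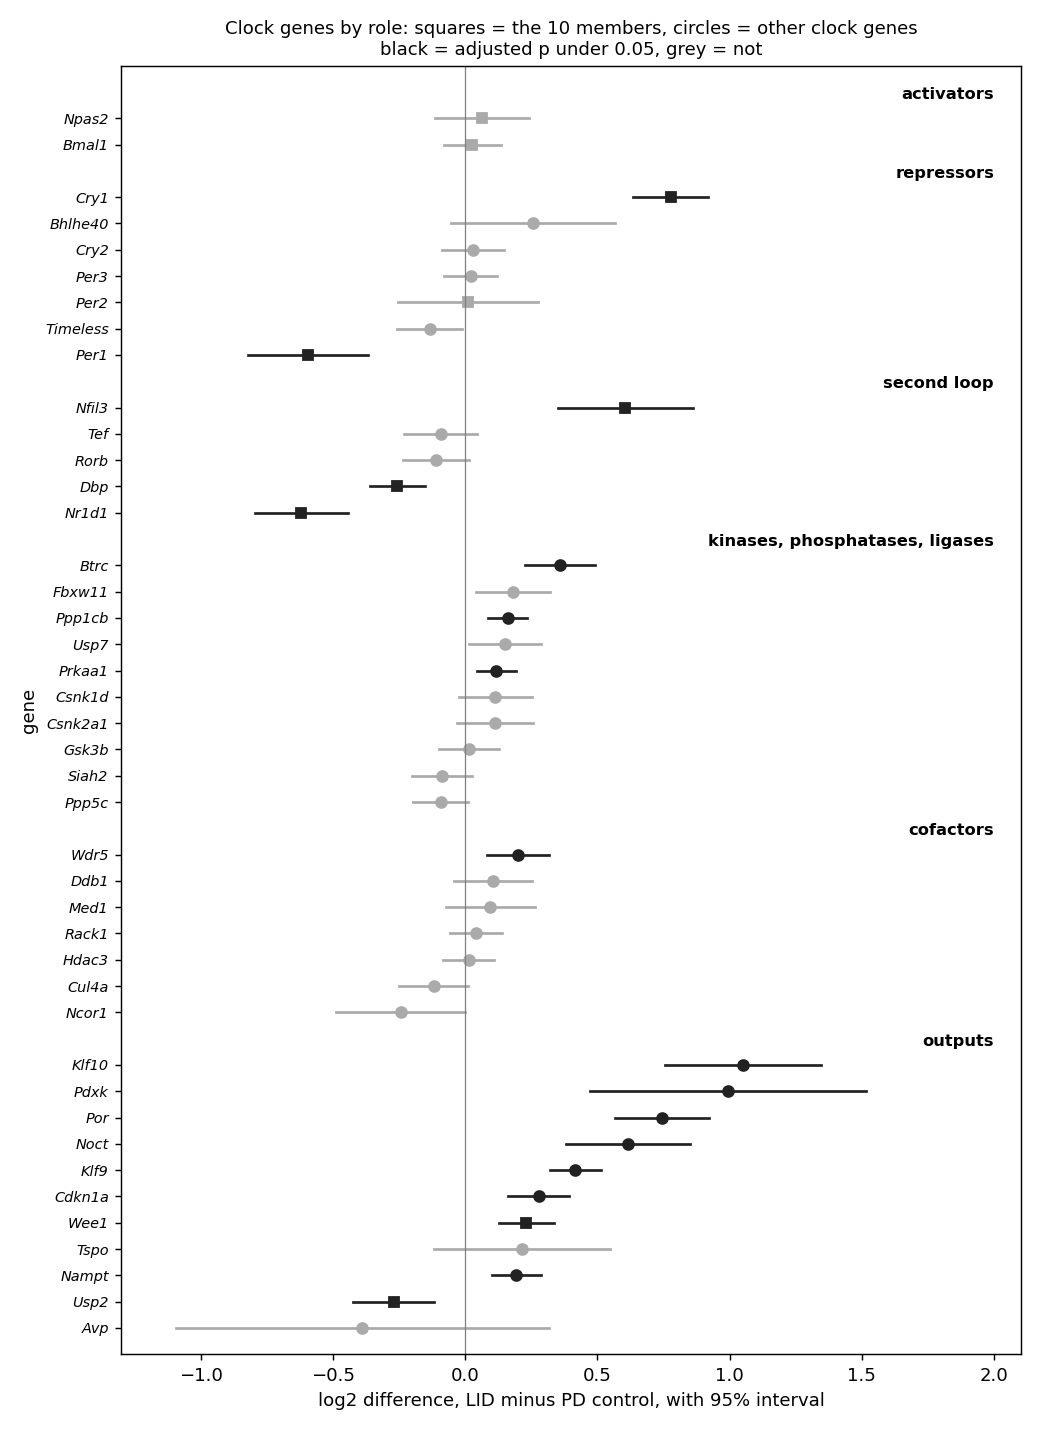
Log2 difference, LID minus PD control, with its 95% interval for the 10 members (squares) and 32 other measured clock genes (circles), by role; black marks an adjusted p under 0.05. The called genes outside the members are all higher in LID, and 7 of these 11 are outputs.

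Of 52 other clock genes listed by role, 32 had a named probe, among them none of Clock, Nr1d2, Hlf and Bhlhe41. Of the 32, 11 were higher, 0 were lower and 21 did not pass, where 6.47% of all probes were higher and 5.54% lower. Their median difference was 0.11 beside -0.0036 for all probes. The repressors Cry2 (0.03 ± 0.054 SE), Per3 (0.02 ± 0.046) and Bhlhe40 (0.26 ± 0.14, 95% interval -0.054 to 0.57) did not pass, nor did the D-box activator Tef (-0.09 ± 0.064). Cry2 and Per3 were dim, with group means of 6.19 to 6.42, so their intervals apply to a compressed scale.

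Among 10 kinases, phosphatases and ubiquitin ligases that act on clock proteins, 3 were higher, 0 lower and 7 did not pass. The shares of all probes were 6.47% higher and 5.54% lower. Btrc, the F-box protein that recognises phosphorylated PER, ran from 8.11 to 8.28 in PD control and from 8.35 to 8.72 in LID (0.36 ± 0.061 SE, limma adjusted p = 0.0026). Ppp1cb, a catalytic subunit of the phosphatase PP1, which dephosphorylates PER, differed by 0.16 ± 0.034, and Prkaa1, a catalytic subunit of the AMP-activated kinase that marks CRY1 for breakdown, by 0.12 ± 0.034 from a dim signal. Both Ppp1cb and Prkaa1, named because they passed, were higher in LID on all 6 arrays than on any control. The groups did not overlap for 6.12% of all probes. Csnk1d, a casein kinase of PER proteins, differed by 0.11 ± 0.064 and did not pass. Of 7 cofactors, Wdr5, a histone methyltransferase subunit found with PER complexes, was higher (0.20 ± 0.054) and 6 did not pass.

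Clock-controlled outputs outside the members had 7 of 9 measured genes higher and 0 lower, with a median difference of 0.42. Of all probes, 6.47% were higher and 5.54% lower. The 2 output members, counted apart, were Wee1, higher, and Usp2, lower. The list was chosen with earlier results of these data known. Klf9 and Cdkn1a are also in the glucocorticoid list below, and Klf10 in that of CREB or neuronal activity. Klf10, a Krüppel-like repressor, ran from 6.59 to 7.53 in PD control and from 7.76 to 8.34 in LID (1.05 ± 0.14 SE, limma adjusted p = 0.00051). Por, the cytochrome P450 oxidoreductase gene, ran from 9.71 to 9.93 in PD control and from 10.29 to 10.83 in LID (0.74 ± 0.082, limma adjusted p = 0.00021). Klf9, a Krüppel-like factor also induced by glucocorticoids, differed by 0.42 ± 0.045 (limma adjusted p = 0.00019), and its groups did not overlap.

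Noct, which encodes nocturnin, ran from 9.60 to 9.95 in PD control and from 10.07 to 10.66 in LID (0.62 ± 0.11 SE, limma adjusted p = 0.0032). Pdxk, the pyridoxal kinase gene that D-box activators drive in mouse, differed by 0.99 ± 0.24 with a wide range on both sides, from 7.12 to 8.56 in PD control and from 8.58 to 9.85 in LID. It was higher while Dbp was lower and Tef did not pass. Cdkn1a, the cell-cycle inhibitor p21 (0.28 ± 0.053, from the dim mean of 5.81), and Nampt, of the NAD salvage pathway (0.19 ± 0.043), were also higher. For Nampt and Noct, as for Klf9, Klf10, Por, Pdxk and Cdkn1a, the groups did not overlap, against 6.12% of all probes. These are the outputs that had already passed the test.

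The clock members share inputs with other gene sets, whose values are given beside them. Counts in these sets stand beside 6.47% of all probes higher and 5.54% lower. Per1 and Klf9 are both induced by glucocorticoids, and in that list of 16 measured genes 5 were higher and 4 lower. Fkbp5, a cochaperone of the glucocorticoid receptor, was higher (0.79 ± 0.068 SE), Sgk1, a kinase gene, lower (-1.16 ± 0.14), and Tsc22d3, a leucine zipper gene, differed by -0.09 ± 0.078 and did not pass. Per1 was thus lower together with Sgk1 and opposite to Fkbp5 and Klf9. Of 24 genes induced by CREB or neuronal activity, a list that holds Per1, Per2, Nfil3 and Klf10, 9 were higher and Per1 was the 1 lower. Crem, the cAMP-responsive modulator gene, was among those higher (0.79 ± 0.095), while Fos (0.30 ± 0.20) and Egr1 (0.37 ± 0.20) did not pass. The mean log2 level of the 21 of these genes that are no members ran from 7.62 to 8.19 in PD control, highest in replicate 6, and from 7.94 to 8.34 in LID. PD control replicate 6 also had the highest Per1 and Per2 of that group, and the part of this in the results was not tested. Of 7 genes that respond to temperature or heat stress, the cold-inducible Cirbp (-0.56 ± 0.072) and Rbm3 (-0.53 ± 0.093) were lower and Hspa5, an endoplasmic reticulum chaperone, was higher (0.80 ± 0.051), as was Hspb1, named after its value was seen, and 3 did not pass.

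Some PD control arrays stood apart in tissue markers. Counts of called markers are to be read beside 6.47% of all probes higher and 5.54% lower. Striatal projection neuron genes were bright on every array, and 6 of 14 measured were higher in LID. Their mean log2 level ran from 10.73 to 11.25 in PD control, lowest in replicates 1, 3 and 6 (10.73, 10.82 and 10.87), and from 11.24 to 11.57 in LID. The mean level of 8 cortical excitatory genes, with 1 higher and 1 lower in LID, was highest in PD control replicates 3 and 6 (8.41 and 8.35, against 7.44 to 8.04 in LID), the same arrays that were highest in Per2. Among the LID arrays, replicate 4 was highest in both. LID replicate 6, the next highest of LID in Per2 (9.46), was the lowest of LID in the cortical genes (7.44). The part of these tissue markers in the results was not tested beyond the fit that follows. The mean of 12 choroid plexus and ependymal genes, none of them called, was highest in PD control replicate 1 (8.48, with LID from 6.97 to 8.11), and so was that of 10 diencephalic and pallidal genes, again with 0 called (7.65, with LID from 6.42 to 7.01). Astrocyte genes, with 3 of 9 higher, had means of 10.70 to 11.03 in PD control and 10.96 to 11.28 in LID. Oligodendrocyte genes had 0 of 10 higher and 2 lower (means of 10.28 to 10.93 and 10.27 to 10.77), microglial genes 0 of 8 higher and 1 lower (7.69 to 8.13 and 7.81 to 8.13), and endothelial genes 2 of 7 higher and 1 lower (7.84 to 8.12 and 7.98 to 8.18).

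Without PD control replicates 1, 3 and 6, 7.92% of probes were called and 5 of the 10 members, Cry1 and Nfil3 higher and Per1, Nr1d1 and Dbp lower. The differences in that fit were 0.73 for Cry1, 0.58 for Nfil3, -0.51 for Per1, -0.67 for Nr1d1 and -0.29 for Dbp. Wee1 (0.23, adjusted p = 0.051) and Usp2 (-0.31, adjusted p = 0.063) kept the size of their differences and missed the threshold. Of the 32 other clock genes 9 passed, all higher.

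**Figure D4:**
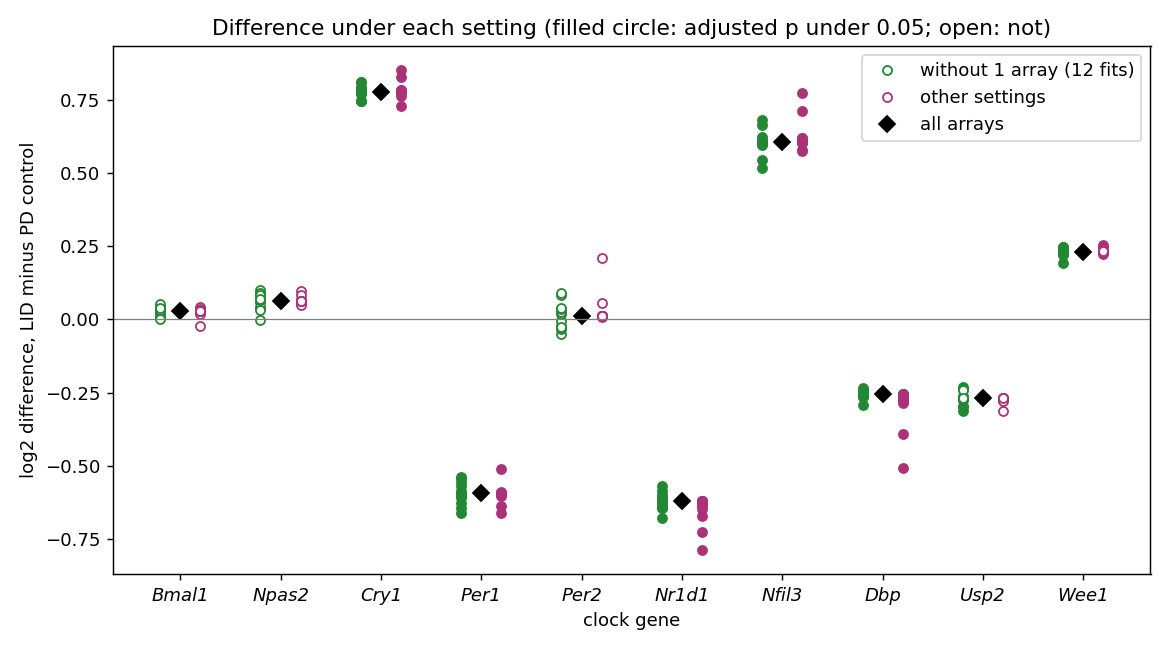
Log2 difference, LID minus PD control, of each clock gene with all arrays (diamond), in the 12 fits without 1 array (left circles) and under the other settings (right circles); filled circles have an adjusted p under 0.05. The 7 called members keep their sign throughout, while Bmal1, Npas2 and Per2 cross 0 in some fits.

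Once group means were removed, the named genes whose log2 values followed a called member most closely over the 12 arrays were not other members. For Cry1 these were Aldh16a1 (r = 0.97) and Anxa8 (0.91), for Nr1d1 Serpina4 (0.93) and Colec10 (0.92), for Per1 Thoc5 (0.90) and Trappc8 (0.89), and for Wee1 Nup188 (0.94) and Hecw2 (0.90). For Dbp they were Agmat (0.92) and Large2 (0.87), for Usp2 Snrpa (0.90) and Sirt7 (0.88), and for Nfil3 Pdk4 (0.87) and Rtfdc1 (0.87). These are the highest correlations over all named genes, across 12 arrays, and are given as a description. With so many genes to choose from, the absence of other members says nothing of whether members vary together.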

How the data were processed

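Striatal total RNA was labelled with biotin and measured on Illumina arrays, per the labels' protocols. The authors deposited linear intensities (36.5 to 22793) whose upper quartile was 426 on every array, the pattern left by quantile normalization; the sources used here name no software or background correction. No detection p-values were used.

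The intensities were corrected with normexp (offset 50, which shrinks differences of dim probes), quantile normalised and log2 transformed in limma 3.58.1 (R 4.3.3). A model with group alone (lmFit, eBayes) was fitted to all 13375 probes, tested two-sided and adjusted by Benjamini-Hochberg (threshold 0.05), after tests on simulated data. The platform annotation named 9434 probes with 1 symbol, 0 with several and 3941 with none, and 9415 symbols matched RefSeq's GRCr8 table. Genes with several probes are given by the brightest. The members, lists and alternatives were chosen with earlier results of these data known. Named are all members, other clock genes that passed or were fixed with the list, the 2 nearest genes of each called member and examples of further lists. Alternatives were other normalizations, offsets of 1 and 16, dim-probe filters, a replicate block, array weights, another variance model, 1 probe per gene and arrays left out; another probe per member could not be tried, since each has 1. No arrays held identical values.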

Additional observations from a re-analysis of the deposited data

Results flagged for a closer look

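Among the 20 sets of 6 arrays (10 members in 2 groups), 1 held an array far from the others by Dixon's criterion. Wee1 in LID replicate 6 was 9.38, with the next LID array at 9.21 and the lowest at 9.12, a gap of 0.65 of the group's range above the critical value for 6 samples. Chance gives about 1 in 20 such sets. Without that array the difference of Wee1 was 0.19, the lowest of its 12 fits without 1 array, and still past the threshold.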

How the results depend on the processing

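The 7 called members kept their direction in all 167 results under other settings, where each result is 1 member in 1 fit. They remained past the threshold in 159. Of the 8 losses, 7 were of Usp2 and the other was of Wee1. Usp2 was lost with an offset of 1 (-0.28, adjusted p = 0.051), under the replicate block, without 4 single arrays and without PD control replicates 1, 3 and 6. The last setting also left 1059 probes past the threshold in place of 1606, with 3 arrays fewer. Without 1 array the count of probes ran from 1112 to 1556, that of members from 6 to 7 and that of other clock genes from 9 to 11. Among members that did not pass, signs turned: Bmal1 was -0.021 without PD control replicates 1, 3 and 6, Npas2 ran from -0.0013 to 0.100 and Per2 from -0.049 to 0.090 without 1 array. The cause was not tested.

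The replicate number as a block gave 1332 probes, 6 members (all but Usp2) and 10 other clock genes. Same-numbered arrays deviated together with r from -0.29 to 0.48, and 2 of 6 LID arrays correlated best with their own number, so the numbers are not treated as pairs. Leaving out the dimmest 50% of probes removed Bmal1 and Dbp from the table. Dim probes limit what could be seen for Bmal1, Dbp, Cry2 and Per3.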
